A study of Rattus norvegicus with 3 samples.

Results

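The genes described are 9 complement components and receptors: Cfp, Cfb, C1qa, C1qb, C1qc, C1r, C1s, C3 and C5ar1. They were found by gene symbol in the platform annotation, with older names accepted, and all 9 were measured, by 12 of the 20932 probes that carry a gene symbol and as 9 of 15925 genes. Of these, C1qa, C1qc and C1s had 2 probes each and the other 6 genes had 1.

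The cells were NR8383, an established rat alveolar macrophage line, so the results concern 1 line and not macrophages taken from a lung. Cultures in the CNT-1 group and cultures in the CNT-2 group received impurity-free single-wall carbon nanotubes of the kind of that name for 24 h, at 0.1 mg/mL in 1 mg/mL bovine serum albumin. The control, also kept for 24 h, is called untreated in one label and a solvent control with albumin in another, so it is not settled whether it received albumin. The sources used here do not say how the 2 kinds of nanotube differ. Cy3-labelled RNA was read on 1-colour Agilent arrays.

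The table held 1 column per group. The design states an n of 4 but not of which unit, and every source name ends in replicate 4, so a column may be a single array or an average. No test between groups was therefore possible, no p-value is given, and every "higher" or "lower" describes these columns only. The values were centred per probe on an unstated baseline and are read as log2, with a higher value taken as more RNA. A centred value carries no expression level, so levels of different genes cannot be ranked and the cell label cannot be checked from marker levels. A gene was counted as higher or lower when the difference between columns was at least 1, which is 2-fold on the log2 scale.

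Complement is a set of blood and tissue proteins that coat particles and microbes, draw in leukocytes and can pierce membranes. The classical pathway starts with C1q, made of chains from C1qa, C1qb and C1qc, which carries the proteases C1r and C1s. The alternative pathway builds a C3-cleaving enzyme from C3 and factor B, which properdin stabilises. The liver makes most circulating components, while macrophages are a known source of C1q, and properdin comes mainly from leukocytes.

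In CNT-2, 4 of the 9 genes were lower than control and none was higher, where 6.56% of all genes were lower and 10.1% higher. The lower genes were Cfp at -3.83, Cfb at -2.13, C1r at -1.75 and C1qa at -1.02. In CNT-1, 1 of the 9 genes, Cfp at -1.13, was lower and none was higher, where 2.15% of all genes were lower and 1.16% higher. The 9 genes were chosen with earlier results of these data known. No count of them, here or below, can therefore be read as an excess over all genes. Of 44 other measured complement genes, 3 were lower and 6 higher in CNT-2 relative to control. The median of the 9 genes was -0.42 in CNT-1 and -0.09 in CNT-2, beside -0.04 and 0.04 over all genes. The near-zero median in CNT-2 went with a range from -3.83 to 0.61, so the genes did not share a direction in the values as reported. The genes above 0 were C3, C1qc and C1s, none past the threshold. With the columns centred on their 75th percentile or on spike-in probes, only C3 stayed above 0, at 0.17 and 0.38. Fewer cells of a type and less RNA per cell cannot be told apart in these bulk samples.

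**Figure D1:**
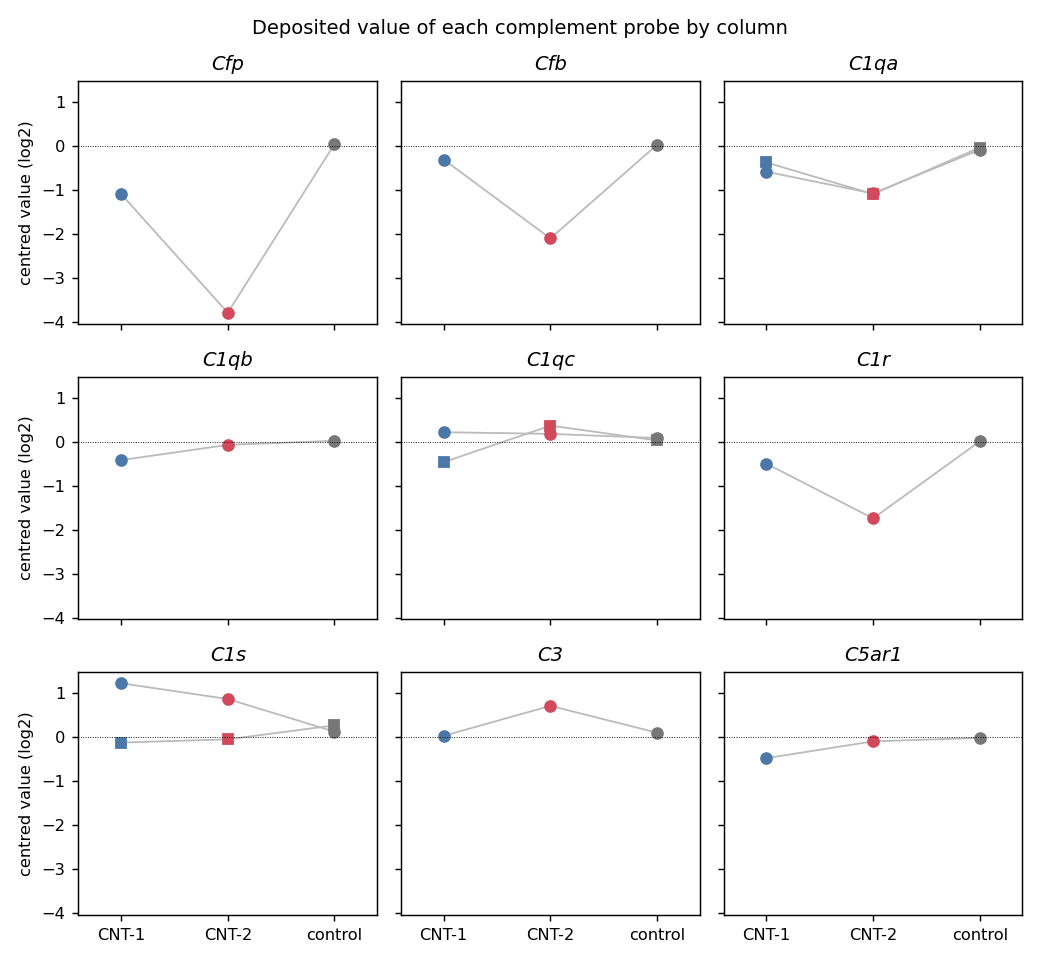
Deposited centred value (log2, vertical axis) of each of the 12 probes in the CNT-1, CNT-2 and control columns, with circles and squares for the probes of one gene. The CNT-2 points of Cfp, Cfb, C1qa and C1r lie between -3.79 and -1.08, below their control points, and the pairs of probes of C1s part in both nanotube columns.

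Cfp encodes properdin, the stabiliser of the alternative pathway C3 convertase. Its probe was at -1.09 in CNT-1, at -3.79 in CNT-2 and at 0.04 in control. It was thus lower with both nanotubes, and further below control in CNT-2, by 14.2-fold against 2.19-fold in CNT-1. Among 15925 genes it ranked 8 from the lowest in CNT-2 minus control, 250 in CNT-1 minus control and 17 in CNT-2 minus CNT-1, where the difference was -2.70. It was at least 1 lower in all 3 comparisons as reported and under each of the 4 other scalings tried. These gave -4.27 to -2.36 for CNT-2 minus control and -1.26 to -1.09 for CNT-1 minus control. All but quantile normalization only shift a column by a constant, at most 0.046 upward in a comparison. Such shifts were too small to end these calls, so they are no check on them. Cfp had 1 probe, so no second probe was there to compare.

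Cfb encodes factor B, the proenzyme that supplies the catalytic part of the same convertase. Its probe was at -0.31 in CNT-1, at -2.10 in CNT-2 and at 0.03 in control. The CNT-1 difference from control, -0.34, was small, whereas the CNT-2 difference of -2.13, or 4.38-fold, ranked 131 from the lowest. CNT-2 minus CNT-1 was -1.79, or -0.83 under quantile normalization, which ended that call. In the rat reference Cfb stands next to C2, which encodes the matching proenzyme of the classical pathway, and C2 was at -0.25 relative to control in both CNT-1 and CNT-2. The alternative pathway protease gene Cfd, which encodes the enzyme that cleaves factor B, was at -0.51 in CNT-1 and -0.83 in CNT-2 relative to control, not past the threshold.

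C3 encodes the central component whose fragments coat particles. Its probe was at 0.03 in CNT-1, at 0.72 in CNT-2 and at 0.11 in control. C3 was the highest of the 9 genes in CNT-2 minus control, at 0.61, and in CNT-2 minus CNT-1, at 0.68, and passed the threshold in neither. The 3 alternative pathway genes of the set thus spread from -3.83 to 0.61 in CNT-2, with the stabiliser and the proenzyme lower and C3 slightly higher.

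The C1q genes stand side by side in the rat reference in the order C1qb, C1qc, C1qa, and their products are assembled into 1 molecule. C1qa had 2 probes, at -0.58 and -0.37 in CNT-1, -1.08 and -1.09 in CNT-2, and -0.08 and -0.03 in control. Its difference from control was -0.42 ± 0.11 in CNT-1 and -1.02 ± 0.05 in CNT-2 (SD over 2 probes). Both probes were lower in CNT-2, 1 at -0.99 and 1 at -1.06, so the gene sits at the edge of the threshold. C1qb, with 1 probe, was at -0.42 in CNT-1, at -0.07 in CNT-2 and at 0.02 in control, a difference of -0.44 in CNT-1 and of -0.09 in CNT-2. The probes of C1qc were at 0.22 and -0.47 in CNT-1, 0.18 and 0.37 in CNT-2, and 0.08 and 0.03 in control. They disagreed in sign for CNT-1 minus control, at 0.13 and -0.49, and both lay slightly above control in CNT-2, at 0.09 and 0.34.

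The chains of C1q therefore had unequal values in CNT-2. C1qa minus C1qb was -0.93 and C1qa minus C1qc was -1.24 on the scale of differences from control, and each C1qa probe lay below every C1qb and C1qc probe. These gaps exceeded the median probe SD over genes with 2 or more probes, 0.19 for CNT-2 minus control. That SD is spread within the columns and not between cultures, and it does not measure a gap between different genes. In the same comparison the C1s probes, at 0.74 and -0.32 (SD 0.75), lay further apart than C1qa and C1qb, though less far than C1qa and C1qc. C1qb had a single probe, so whether its gap from C1qa goes beyond probe spread is not settled. In CNT-1 C1qa and C1qb differed by 0.02. With quantile normalization of the columns, CNT-2 minus control was -0.17 for C1qa and -0.15 for C1qb, so the distance between the chains depended on that step. The other scalings shift each column by a constant and so cannot change that distance.

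C1r and C1s encode the paired proteases of C1 and neighbour each other in the reference. The C1r probe was at -0.50 in CNT-1, at -1.74 in CNT-2 and at 0.008 in control. Its difference from control was -0.51 in CNT-1 and -1.75 in CNT-2, where it was 3.37-fold lower, with CNT-2 minus CNT-1 at -1.25. Quantile normalization ended both calls, which became -0.97 relative to control and -0.41 relative to CNT-1. The C1s probes were at 1.23 and -0.12 in CNT-1, 0.87 and -0.05 in CNT-2, and 0.13 and 0.27 in control. The first was above control in both nanotube columns, by 1.10 in CNT-1 and 0.74 in CNT-2, and the second was below it, at -0.39 and -0.32. No direction can be given for C1s, whose mean difference was 0.36 ± 1.06 in CNT-1 and 0.21 ± 0.75 in CNT-2 (SD over 2 probes). On the other side of C1r stands C1rl, a related protease gene, at -0.90 in CNT-1 and -2.27 in CNT-2 relative to control, and hence lower in CNT-2 as C1r was.

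C5ar1 encodes the receptor for the anaphylatoxin C5a, which draws phagocytes to sites of complement activation. Its probe was at -0.48 in CNT-1, at -0.09 in CNT-2 and at -0.01 in control. The difference from control was -0.46 in CNT-1 and -0.08 in CNT-2, past the threshold in neither, and it turned to 0.07 in CNT-2 with quantile normalization.

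**Figure D2:**
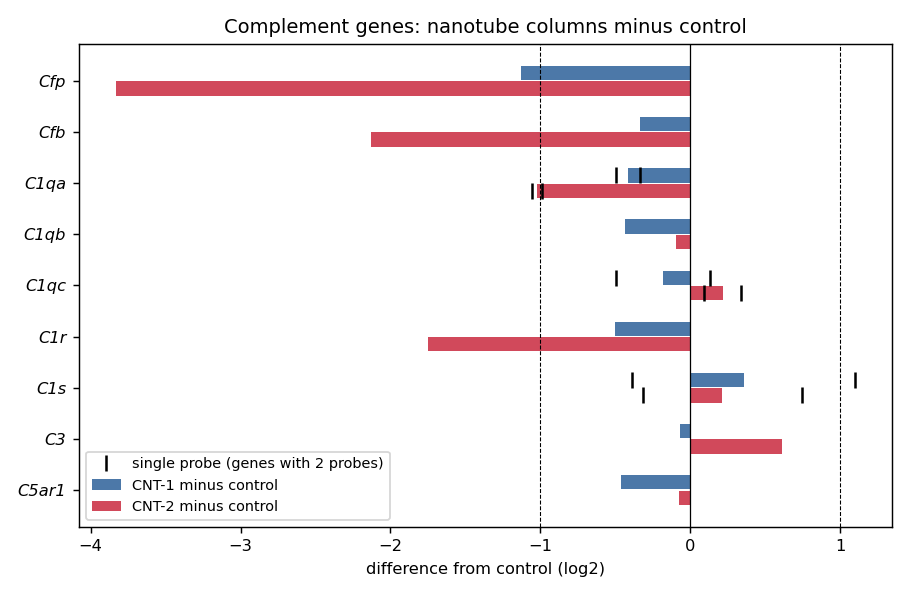
Difference from control (log2, horizontal axis) of the 9 genes for CNT-1 and CNT-2, with bars for the mean over probes, ticks for single probes where a gene had 2, and dashed lines at the threshold of 1. The CNT-2 bars of Cfp, Cfb, C1r and C1qa reach past -1, from -3.83 to -1.02, and the ticks of C1s lie on both sides of 0.

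In CNT-1, differences from control were mostly small and negative. Besides Cfp, the genes C1r, C5ar1, C1qb, C1qa and Cfb lay between -0.51 and -0.34, and 8 of the 9 genes were below 0, beside 57.8% of all genes. The negative-control probe, which matches no transcript, was itself at -0.27 in CNT-1 minus control and at -0.10 in CNT-2 minus control. None of the 12 probes was background-like in control, that is, within 0.02 of the negative-control value of 0.16, as 14.5% of all gene probes were. Because a centred value carries no level, this does not show that the 12 probes read above background. How far the background level bears on the small CNT-1 differences was not tested.

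Comparing CNT-2 directly with CNT-1, 3 of the 9 genes were lower and none was higher, beside 4.65% and 9.32% of all genes. These were Cfp, Cfb and C1r, the values of which are given above. C1qa was at -0.61 and C1s at -0.14, while C1qb at 0.35, C5ar1 at 0.38, C1qc at 0.40 and C3 at 0.68 were above 0, beside a median of 0.15 over all genes. The comparisons share columns, so they are not independent of each other.

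**Figure D3:**
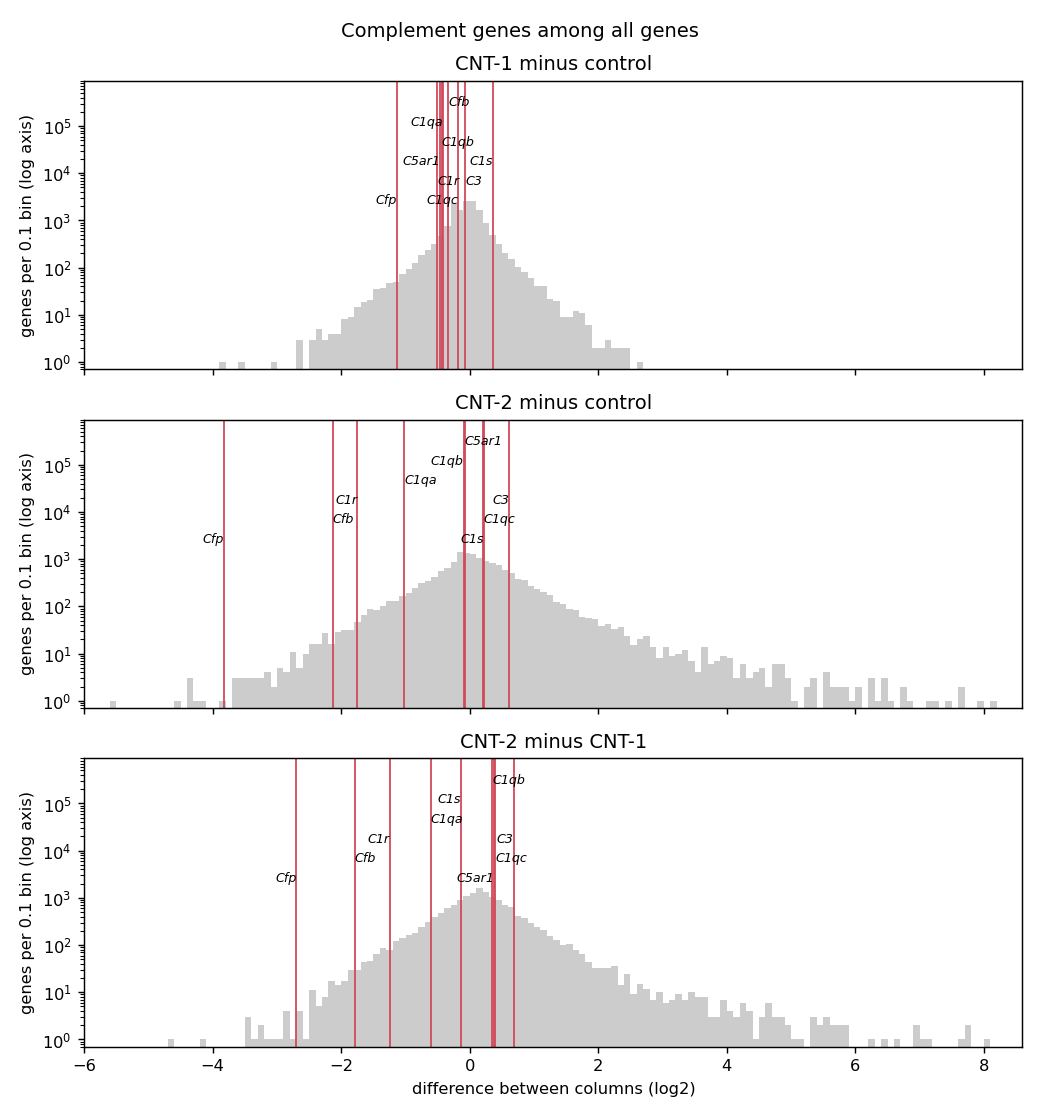
Distribution of the difference between columns (log2, horizontal axis) over 15925 genes in 3 comparisons, with the number of genes per bin on a log axis and a red line for each of the 9 genes. Cfp lies in the far lower tail in CNT-2 minus control at -3.83, where 7 genes were lower still, and the CNT-1 lines, other than Cfp at -1.13, crowd between -0.51 and 0.36.

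Promoter sequences from RefSeq (build GRCr8) were matched by symbol for 5 of the 9 genes, from 250 bases before to 50 bases after the annotated start. They are shown for the lower genes of CNT-2 that matched, Cfp, C1qa and C1r, and for C1qb, the neighbour of C1qa whose value stayed near control in CNT-2. Each reads 5′ to 3′ on the strand of the gene, and capitals mark matches on either strand, with overlapping ones joined, to either of 2 motifs. The NF-kappaB form was GGG, then any 5 bases, then CC. The GAS form, bound by STAT factors, was TTC, then any 3 bases, then GAA.
Cfp chrX:3715301-3715600, plus strand: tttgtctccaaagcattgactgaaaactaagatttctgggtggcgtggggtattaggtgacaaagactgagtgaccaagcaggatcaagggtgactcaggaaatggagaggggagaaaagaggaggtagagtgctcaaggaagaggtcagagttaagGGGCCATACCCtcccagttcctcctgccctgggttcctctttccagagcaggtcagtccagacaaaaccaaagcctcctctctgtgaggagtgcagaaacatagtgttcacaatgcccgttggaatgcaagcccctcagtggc
C1qa chr5:154419884-154420183, minus strand: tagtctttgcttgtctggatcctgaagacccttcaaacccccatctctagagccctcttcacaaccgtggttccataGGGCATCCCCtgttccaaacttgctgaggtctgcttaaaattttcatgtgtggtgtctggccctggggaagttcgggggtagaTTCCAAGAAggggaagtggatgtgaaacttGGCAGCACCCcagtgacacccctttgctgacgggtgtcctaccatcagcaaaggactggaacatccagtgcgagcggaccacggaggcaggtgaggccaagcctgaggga
C1r chr4:159098763-159099062, plus strand: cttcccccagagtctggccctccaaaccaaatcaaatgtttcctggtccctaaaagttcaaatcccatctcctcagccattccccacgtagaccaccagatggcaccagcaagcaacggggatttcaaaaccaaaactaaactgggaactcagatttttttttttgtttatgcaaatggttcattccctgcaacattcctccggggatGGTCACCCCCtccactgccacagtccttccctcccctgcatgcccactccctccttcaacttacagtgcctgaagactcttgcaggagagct
C1qb chr5:154407778-154408077, minus strand: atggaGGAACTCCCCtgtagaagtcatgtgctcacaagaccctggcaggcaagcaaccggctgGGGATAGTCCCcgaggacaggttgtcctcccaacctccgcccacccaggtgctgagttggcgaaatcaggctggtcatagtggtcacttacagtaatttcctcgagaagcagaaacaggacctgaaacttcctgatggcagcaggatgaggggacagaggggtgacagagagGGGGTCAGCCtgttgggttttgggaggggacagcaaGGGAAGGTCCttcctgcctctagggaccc
The NF-kappaB form was present in all 4, and it is found in 47.3% of 33469 promoters of the same length, so its presence is common. The remaining matched promoter, that of C3, is not shown and also held this form. The GAS form was found in C1qa, in 1 place that reads as a match on both strands, and is in 8.87% of all promoters. The interferon response form, GAAA, then any 2 bases, then GAAA, was found in none of the 4 and is in 3.92% of all promoters. A match is a run of letters and not a measured site.

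Of 44 measured genes of a wider complement list, 3 were lower and 6 higher in CNT-2 relative to control, close to the shares over all genes, 6.56% lower and 10.1% higher. In CNT-1 none was lower and 4 were higher, beside 2.15% and 1.16% of all genes. The wider list was also chosen with earlier results of these data known, so the CNT-1 count cannot be read as an excess over all genes. The counts in CNT-1 and CNT-2 are therefore no result about the list, and the genes past the threshold are given as single values. The median of the 44 genes was -0.06 in CNT-1 and 0.17 in CNT-2, against -0.04 and 0.04 over all genes. The lower genes in CNT-2 were C1rl, Fcnb and Cd59b. The higher genes in CNT-2 were Cpn2, Itgam, Colec11, Cd93, C4bpb and Crp, and in CNT-1 they were Colec11, Cpn2, Mbl1 and Itgam. Between the nanotubes, CNT-2 minus CNT-1, 2 of the 44 were lower, Fcnb and C1rl, and 5 were higher, Cpn2, Itgam, Cd93, Colec11 and Crp, again close to the 4.65% lower and 9.32% higher of all genes. Under 75th percentile centring 3 of the 4 higher calls of CNT-1 ended, with Cpn2 at 0.99, Mbl1 at 0.98 and Itgam at 0.96. Under quantile normalization none of the 5 genes named for CNT-2 minus CNT-1 was higher, Colec11 was at -1.22 and C1rl at -0.35.

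Among receptors and proteins that bind C1q or C3 fragments, 2 of 9 genes were higher in CNT-2 and 1 in CNT-1, beside 10.1% and 1.16% of all genes. The group was formed after its values were seen and the counts are small, so they are no result about receptors. Itgam, the alpha chain of complement receptor 3, was at 1.00 in CNT-1, at 3.44 in CNT-2 and at -0.02 in control, which put it at 1.02 and 3.46 above control. Its partner chain Itgb2 was at 0.18 in CNT-1 and 0.94 in CNT-2 relative to control. Cd93, a phagocyte surface protein once described as a C1q receptor, was at 0.24 in CNT-1, at 2.01 in CNT-2 and at -0.25 in control, a difference of 0.48 in CNT-1 and of 2.26 in CNT-2. Vsig4, a macrophage receptor for C3 fragments, was at -0.03 and -0.96 relative to control. The anaphylatoxin receptors C3ar1, at 0.21 in CNT-1 and 0.17 in CNT-2, and C5ar2, at -0.16 and 0.56, did not pass the threshold, nor did C5ar1.

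The lectin pathway recognises sugars. Fcnb, a ficolin, was at 0.21 in CNT-1, at -2.12 in CNT-2 and at 0.26 in control, a difference from control of -0.05 in CNT-1 and of -2.38 in CNT-2. Colec11, a collectin, was at 1.88 in CNT-1, at 3.20 in CNT-2 and at 0.10 in control, or 3.45-fold above control in CNT-1 and 8.57-fold in CNT-2. Mbl1, a mannose-binding lectin, was the gene past the threshold in CNT-1 and not in CNT-2, at 1.03 and 0.65 relative to control. The other 6 of the 9 lectin pathway genes, the proteases Masp1 and Masp2 among them, passed the threshold in neither column. In CNT-2, 1 of the 9 was lower and 1 higher, beside 6.56% and 10.1% of all genes. In CNT-1 2 were higher, beside 1.16%. These counts are too small to be a result about the pathway.

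Of 8 soluble regulators 2 were higher and none was lower in CNT-2, and of 5 membrane regulators 1 was lower and none was higher, counts too small to set against the 10.1% higher and 6.56% lower of all genes. Cd59b, the membrane inhibitor of the lytic pore, was at -0.58 in CNT-1, at -1.25 in CNT-2 and at 0.007 in control, a difference of -0.59 in CNT-1 and of -1.26 in CNT-2. The CNT-2 difference was -0.69, short of the threshold, under quantile normalization. Cd55, which takes apart C3 convertases on cells, and Cd46, a cofactor for the cleavage of C3b and C4b by factor I, were at 0.18 and 0.06 in CNT-1 and 0.94 and 0.63 in CNT-2 relative to control, not past the threshold. Cpn2, a subunit of the carboxypeptidase that inactivates anaphylatoxins, was at 1.06 in CNT-1, at 4.10 in CNT-2 and at 0.008 in control. C4bpb, a chain of the soluble C4b-binding protein, was at 0.89 in CNT-1 and 1.46 in CNT-2 relative to control. Crp, a pentraxin that binds C1q, was at 0.28 ± 0.26 in CNT-1 and 1.44 ± 0.67 in CNT-2 (SD over 2 probes), and 1 of its probes was background-like in control. Its CNT-2 call ended under quantile normalization, at 0.14, and with the probe nearest 0, at 0.97. Cpn2, C4bpb, Crp and Mbl1 are known chiefly as liver genes. Of 8 measured hepatocyte markers none was higher in either nanotube column and 1 was lower in CNT-2, with medians of -0.28 in CNT-1 and 0.11 in CNT-2. Over all genes 1.16% were higher in CNT-1, and 10.1% higher and 6.56% lower in CNT-2. With 8 markers, such counts are no result about hepatocyte genes.

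The terminal components C5, C6, C8a, C8b, C8g and C9 passed the threshold in neither column, with ranges of -0.55 to -0.05 in CNT-1 and -0.96 to 0.66 in CNT-2. Over all genes 2.15% were lower and 1.16% higher in CNT-1, and 6.56% lower and 10.1% higher in CNT-2. With 6 genes, finding none past the threshold is no result about the group. C4a was at -0.05 and -0.36, and its near-identical copy C4b could share its signal.

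**Figure D4:**
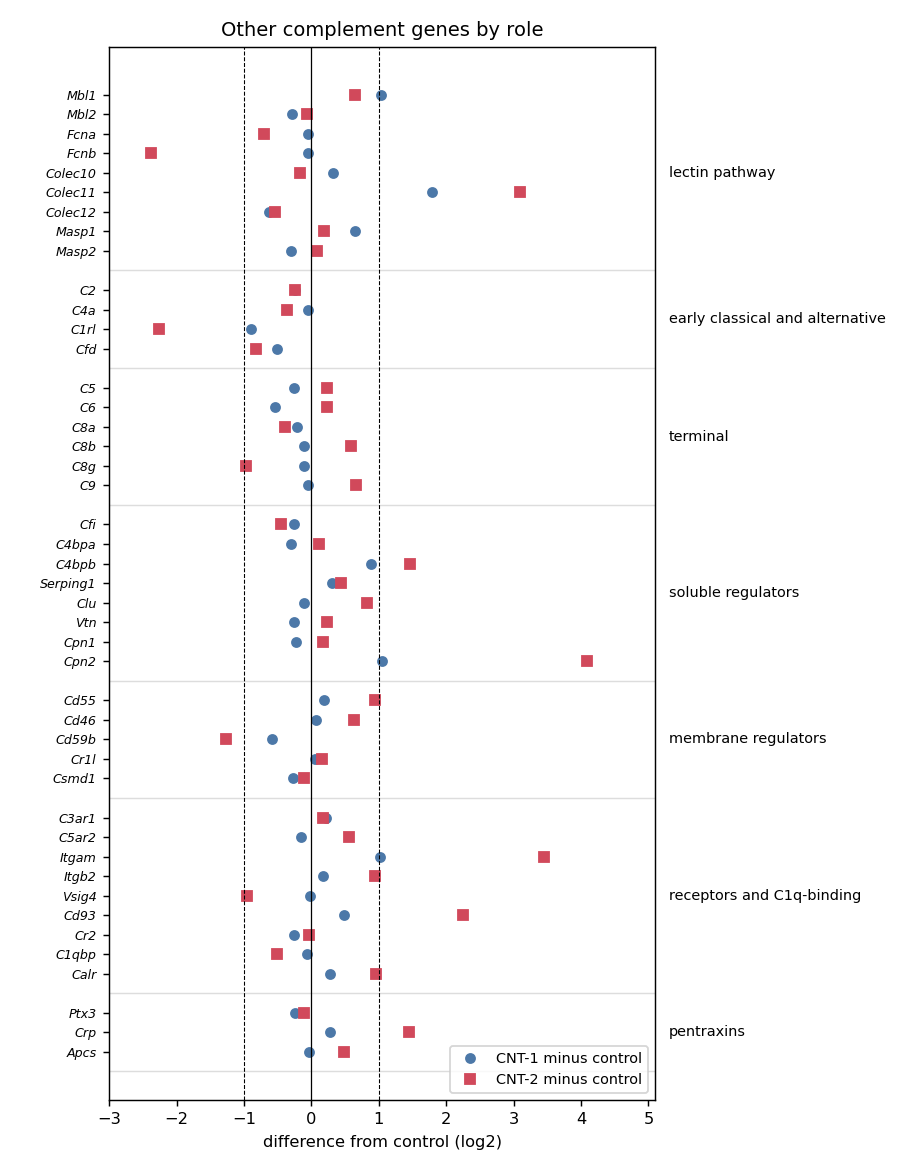
Difference from control (log2, horizontal axis) of 44 further complement genes in 7 role groups, with circles for CNT-1, squares for CNT-2 and dashed lines at 1 and -1. Cpn2 and Itgam lie furthest to the right in CNT-2, at 4.09 and 3.46, and Fcnb and C1rl furthest to the left at -2.38 and -2.27.

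Of 13 measured alveolar macrophage markers, 2 were lower and 1 was higher in CNT-2, where 6.56% and 10.1% of all genes were, namely Mrc1 at -2.24, Csf1r at -1.25 and Fabp4 at 3.96, and none passed the threshold in CNT-1. Cd68, Marco, Spi1, Lyz2 and Tyrobp ranged within 1 of control in both columns. Of 34 markers of hepatocytes, epithelium, fibroblasts, endothelium, lymphocytes, neutrophils and mast cells, 1 was lower and 1 higher in CNT-1, and 3 were lower and 2 higher in CNT-2. Over all genes 2.15% were lower and 1.16% higher in CNT-1, and 6.56% lower and 10.1% higher in CNT-2. The median of the 34 was -0.19 in CNT-1 and 0.01 in CNT-2, beside -0.04 and 0.04 over all genes. In CNT-1, 29 of the 34 were below 0, beside 57.8% of all genes and 8 of the 9 complement genes, whose median was -0.42. The markers were chosen with earlier results of these data known, so these counts are no result about cell types. In control, 4 of the 34 were background-like at every probe. Levels summed over a list, and markers at 0, cannot be read from centred values. Spike-in probes were 0.23 ± 0.10 above control in CNT-2 and at -0.05 ± 0.07 in CNT-1 (SD over 10 probes). The part of these shifts in the complement values was not tested.

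Scaling moved sizes more than directions among the lower genes. For CNT-2 minus control, Cfb ranged from -2.57 to -1.29, C1r from -2.19 to -0.97 and C1qa from -1.46 to -0.17 over 5 scalings, the low ends under 75th percentile centring and the high ends under quantile normalization. C1qb stayed below 0 and C3 above 0 under all 5, while C1qc, C1s and C5ar1 changed sign. Quantile normalization left 2 of the 9 genes lower in CNT-2, Cfp and Cfb. It forces equal spread on columns whose SD over gene probes was 0.37 in CNT-1, 0.89 in CNT-2 and 0.15 in control.

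**Figure D5:**
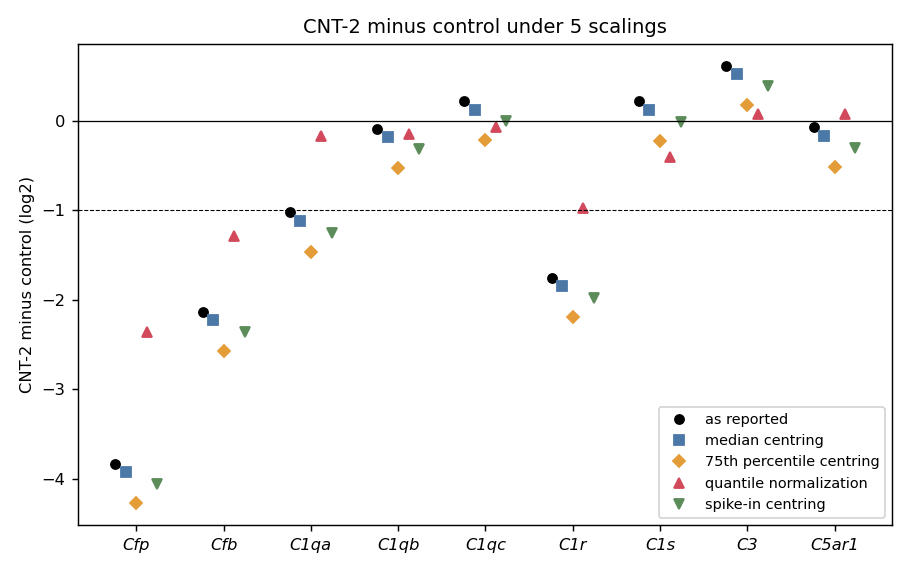
CNT-2 minus control (log2, vertical axis) of the 9 genes under 5 scalings of the columns, 1 symbol per scaling, with a dashed line at -1. Cfp and Cfb lie below -1 under all 5, C1r and C1qa under 4, and quantile normalization gives the values nearest to 0 for these 4 genes.

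By distance in the pair of differences from control, the genes of 2 or more probes closest to Cfp were Slc1a3, a glutamate transporter, Gys2, a glycogen synthase, and Plxdc2. Slc1a3 was at -0.82 in CNT-1 and -3.59 in CNT-2, Gys2 at -1.02 and -4.36, and Plxdc2 at -0.85 and -3.26. None of the 3906 such genes lay within 0.25 of Cfp. Cfp was taken for being the lowest of the set in CNT-2 minus control, where it ranked 8 from the lowest. Few genes lie that far out, so this count cannot show whether its pattern was unusual. For C3, the closest were Slc7a10, Cdk17 and Tcte1, but 347 of the 3906 lay within 0.25, so its pattern was a common one.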

How the data were processed

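RNA of NR8383 cells was measured on 1-colour Agilent arrays, and per the submitters' processing notes the scans were read by Agilent Feature Extraction, version 10.7.3.1. The authors deposited 1 table of 41103 probes and 3 columns, read as log2 values centred per probe. The sources used here state neither log base nor baseline, normalization or direction. A natural log is possible, and folds hold only for log2. The number of arrays limits the precision.

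Probes were named from the platform annotation (20932 with 1 symbol, 0 with several, 20171 with none). Accessions matched RefSeq (GRCr8) for 17424 probes, 3104 kept a current symbol, 396 took a newer one through a synonym and 8 stayed unmatched. Differences between columns were taken per probe and averaged per gene, with Python 3.11.15 and pandas 2.3.3, and the step was tested on simulated data. The rank, median and counts were taken over all 15925 genes. No test was made.

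The genes, the wider list, the markers and the motifs were chosen with earlier results of these data known. The wider list has 52 genes, 44 of them analysed here. Named were all 9 genes, wider-list genes at least 1 from the compared column, and the 3 genes nearest to the highest and lowest of the 9. Neighbours, weaker values and role groups were added after their values were seen. Alternatives were other scalings, probe summaries, names, filters and thresholds. RefSeq promoters were not found for Cfb, C1qc, C1s and C5ar1.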

Additional observations from a re-analysis of the deposited data

How the results depend on the processing

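No paired analysis was possible because each group has 1 column. For the 9 genes, the median of CNT-2 minus control was -0.09 as reported, -0.53 with 75th percentile centring, -0.32 with spike-in centring and -0.32 with the probe nearest 0. The median of CNT-2 minus CNT-1, -0.14 as reported, was -0.53 and -0.41 with those 2 centrings. Quantile normalization left 2 genes lower in CNT-2 minus control instead of 4, and 1 instead of 3 in CNT-2 minus CNT-1. A threshold of 1.5-fold added 1 higher gene, C3, in each of these 2 comparisons. All other counts and medians of the 9 genes kept within 1.5 times or within the median probe SD of the value reported.

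For the other complement genes, the medians of CNT-2 minus control were 0.17 as reported, -0.27 with 75th percentile centring, -0.069 with quantile normalization and -0.054 with spike-in centring. Those of CNT-2 minus CNT-1 were 0.23, -0.15 under 75th percentile centring and -0.041 under the spike-in one, so the sign of these medians is not settled. In CNT-1 minus control, 75th percentile centring gave 1 higher gene instead of 4, quantile normalization 7 higher and 1 lower, and a threshold of 1.5-fold 3 lower. In CNT-2 minus control, lower genes were 3 as reported, 5 under median centring, 7 under 75th percentile centring and 6 under spike-in centring, and a threshold of 1.5-fold gave 7 lower and 13 higher. In CNT-2 minus CNT-1, 75th percentile centring gave 6 lower and 3 higher, spike-in centring 4 lower, quantile normalization 0 higher, and a threshold of 1.5-fold 6 lower and 13 higher. Colec11 turned to -1.22 in CNT-2 minus CNT-1 with quantile normalization, against 1.31 as reported. The cause of the shifts under centring was not tested beyond their construction.

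If the values were natural logs, an alternative chosen after seeing the data, a 2-fold threshold would give other complement genes 1 lower in CNT-1 minus control, 7 lower and 10 higher in CNT-2 minus control, and 4 lower and 11 higher in CNT-2 minus CNT-1. With 1 column per group, none of these values has a replicate check, and dim probes could be judged only by likeness to the negative-control probe.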
